A study of Homo sapiens with 9 samples.

Results

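The genes described here encode the plasminogen activators, the matrix metalloproteases and their inhibitors in MCF10A cells, an established line of human mammary epithelium that does not form tumours. They were chosen by name, and all 9 of them (PLAU, PLAUR, PLAT, SERPINE2, MMP2, MMP9, MMP14, TIMP1 and TIMP2) were found among the 56609 gene symbols of the expression table. RNA was sequenced in 9 samples, with 3 samples in each of 3 groups. The high calcium group received 10 mM calcium and the ionophore ionomycin (labelled as 1 mM) for 16 h, the TGFb3 group received 10 nM transforming growth factor beta 3 for 16 h, and the control group was untreated. Every group was grown in medium with horse serum, EGF, hydrocortisone, cholera toxin and insulin. Calcium and ionomycin were given together, so their effects cannot be told apart. The series title ties the work to calcium, milk stasis and cell death in the involuting mammary gland. All samples come from a single cell line in culture, and the labels do not name the replicates as separate cultures, so that p-values reflect only how far these samples spread, possibly for technical reasons.

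Plasmin, a broad serine protease, is cut from its inactive precursor plasminogen by urokinase (PLAU) or by tissue-type activator (PLAT). Urokinase works at the cell surface when bound to its receptor (PLAUR), and serpins such as protease nexin-1 (SERPINE2) trap the active enzymes. Matrix metalloproteases are zinc enzymes that digest collagens and other matrix proteins. MMP2 and MMP9 are secreted gelatinases, MMP14 sits in the membrane and can activate pro-MMP2, and TIMP1 and TIMP2 block them. In the mouse, plasminogen and metalloproteases are known to take part in the remodelling of the mammary gland during involution.

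Levels are given as TPM (a length-normalised share of the transcripts in each library), with group means ± SD, n = 3. Differences are differences of log2(TPM + 1) with their standard error from the limma fit over 13968 symbols, n = 3 in each group, and a gene was called at a Benjamini-Hochberg adjusted p under 0.05. The depth of the libraries cannot be read from TPM and is unknown. Known responses stood with the labels. SKIL, a target of TGF-beta, had 116 ± 9.61 TPM in TGFb3 against 20.6 ± 3.41 TPM in control. RCAN1 and HSPA5, known to respond to calcium and to stress of its stores, had 170 ± 1.26 and 2962 ± 11.4 TPM in high calcium against 16.0 ± 0.700 and 298 ± 7.61 TPM in control. In all, 10 of 10 TGF-beta response genes rose in TGFb3, where 26.5% of all tested symbols did. In high calcium 10 of 10 calcium and ER stress genes rose, where 46.1% of all did. Both lists were chosen with earlier results of these data known, so the counts are no independent check of the treatments. The responses were not exclusive, since 8 of the 10 calcium and ER stress genes also rose in TGFb3, and 4 of the 10 TGF-beta response genes, SKIL among them, rose and 2 fell in high calcium (3 and 6 after median ratio rescaling). All 14 markers of basal epithelium reached 1 TPM, with summed levels of 12800 to 13100 TPM in high calcium, 15900 to 17900 TPM in TGFb3 and 8480 to 9240 TPM in control. RNA of the mitochondrial genome took 11.5 ± 0.37% of TPM in high calcium, 22.7 ± 0.59% in TGFb3 and 22.7 ± 0.91% in control (exact permutation test, two-sided, p = 0.1 for high calcium against control and 0.9 for TGFb3 against control, where 0.1 is the smallest p this design allows).

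Together the 9 genes took 593 ± 26.7 TPM in high calcium, 1366 ± 70.6 TPM in TGFb3 and 377 ± 17.2 TPM in control. In bulk RNA, fewer cells of a type and less RNA per cell cannot be told apart. TIMP1 held 30.8% of that sum in high calcium, 34.3% in TGFb3 and 55.9% in control. PLAU held 8.27% in high calcium, 32.0% in TGFb3 and 3.39% in control. Of the 9, 7 averaged at least 1 TPM in every group. MMP2 and MMP9 reached that level in TGFb3 alone, and entered the test through that group, so that they had to differ.

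**Figure D1:**
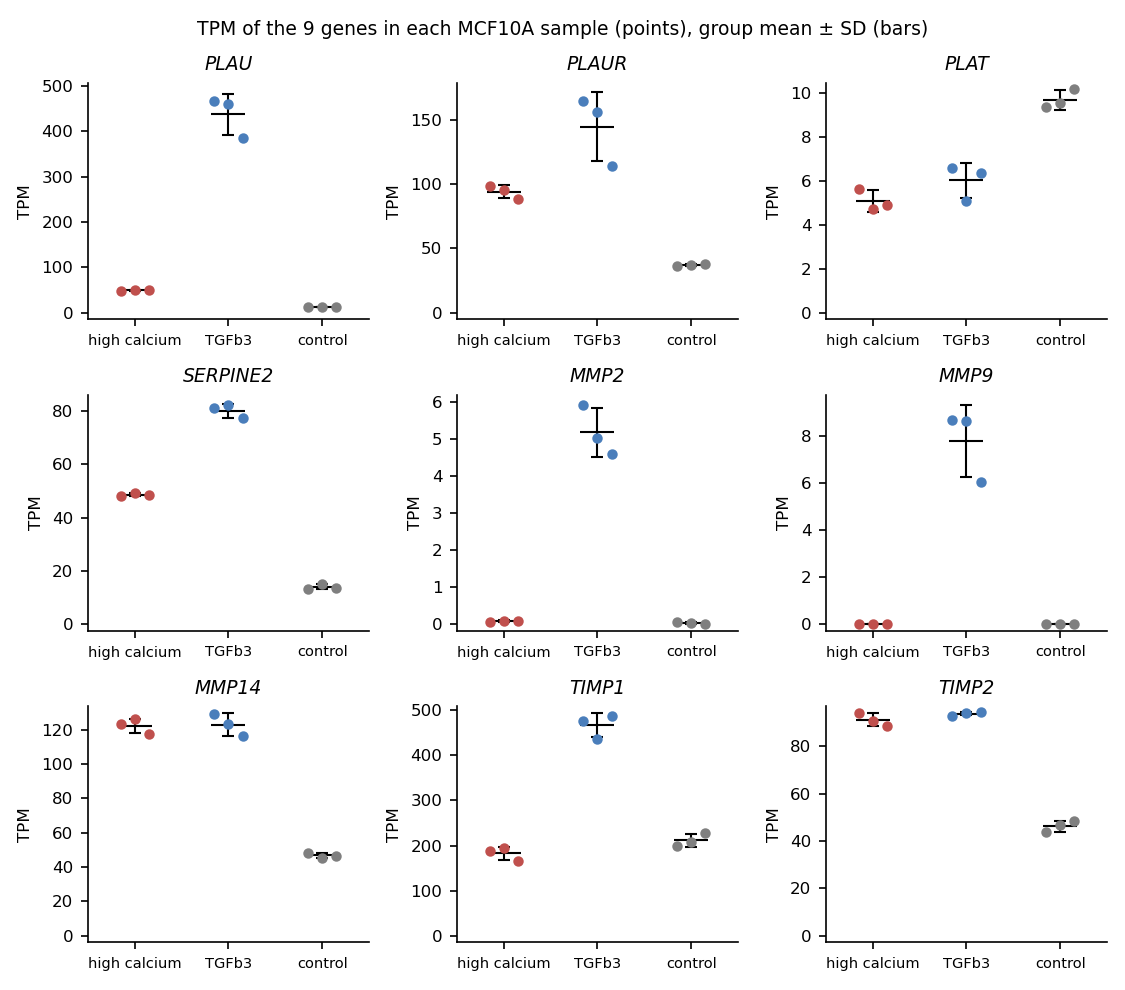
TPM of each of the 9 genes (vertical axes, linear, each panel with its own range) in the 3 samples of high calcium, TGFb3 and control; points are samples and bars are the group mean ± SD. PLAU reaches 386 to 468 TPM in TGFb3 against 12.5 to 13.1 TPM in control, MMP9 is at 0 outside TGFb3, and MMP14 and TIMP2 lie at like TPM in both treated groups.

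In high calcium against control, 5 of the 9 genes rose (46.1% of all tested symbols did), 2 fell (17% of all) and 2 were not called. All 7 genes at 1 TPM or more in every group were called, where 63.1% of all tested symbols were. In TGFb3 against control, 8 of the 9 rose (26.5% of all tested symbols did) and 1 fell (33.1% of all). Among the 7 genes at 1 TPM or more in every group, 6 rose and 1 fell, where 59.6% of all tested symbols were called in either direction. Counted by samples that did not overlap, 6 genes were higher and 2 lower in high calcium than in control, where 49.4% and 19.6% of all tested symbols were (69% together), and 8 were higher and 1 lower in TGFb3 than in control, where 28.4% and 35.4% were (63.8% together). The sixth of the higher genes in high calcium was MMP2, at trace level. Both comparisons use the same control samples. The median difference over all tested symbols was 0.22 for high calcium and -0.06 for TGFb3, and relative to its median the high calcium differences were 1.64 for PLAU, 1.51 for SERPINE2, 1.15 for MMP14, 1.10 for PLAUR, 0.74 for TIMP2, -0.43 for TIMP1 and -1.04 for PLAT. Of all calls in high calcium against control 73% were higher (6438 higher, 2378 lower), against 50.2% after median ratio rescaling, 47.2% after quantile normalisation and 55.1% with mitochondrial genes left out. Directions and calls of the 9 genes in both comparisons with control were as given here under these scalings, apart from MMP2 in high calcium.

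PLAU (urokinase, chromosome 10, 73909177 to 73917497, plus strand, hg38) was raised by both treatments, and far more by TGFb3. It was at 48.0, 50.3 and 48.7 TPM in high calcium, at 468, 460 and 386 TPM in TGFb3 and at 12.5, 12.7 and 13.1 TPM in control. The 3 groups did not overlap, and TGFb3 replicate 3 was the low sample of its group. The difference was 1.86 ± 0.069 for high calcium (limma adjusted p = 1.31e-08) and 4.99 ± 0.069 for TGFb3 (limma adjusted p = 1.74e-11), a 3.63-fold and a 31.7-fold change of TPM + 1. High calcium was lower than TGFb3 by a log2 difference of -3.13 ± 0.069 (limma adjusted p = 4.25e-10). The mean level of PLAU stood above 76.2% of tested symbols in high calcium, above 98.1% in TGFb3 and above 45.6% in control. C10orf55, on the opposite strand across the same locus, was at 1.15 TPM in high calcium, 2.40 TPM in TGFb3 and 0.480 TPM in control, and without known strandedness its reads cannot be told from those of PLAU.

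PLAUR, the membrane-anchored urokinase receptor (chromosome 19, 43646095 to 43670547, minus strand), followed the same order of groups over a narrower range. It was at 98.6, 95.7 and 88.2 TPM in high calcium, at 165, 156 and 114 TPM in TGFb3 and at 36.0, 37.1 and 37.5 TPM in control. No groups overlapped, and the TGFb3 samples were the most spread, with replicate 3 nearest to high calcium. PLAUR rose by 1.33 ± 0.12 in high calcium (limma adjusted p = 4.6e-06) and by 1.93 ± 0.12 in TGFb3 (limma adjusted p = 3.48e-07), and was lower in high calcium than in TGFb3 (-0.60 ± 0.12, limma adjusted p = 0.00108). The ratio of PLAU to PLAUR TPM was 0.521 ± 0.0329 in high calcium, 3.06 ± 0.287 in TGFb3 and 0.347 ± 0.00367 in control. Receptor RNA thus exceeded urokinase RNA in high calcium and in control, and urokinase RNA exceeded receptor RNA in the 3 TGFb3 samples. RN7SL368P, which lies within PLAUR on the same strand, did not exceed 2.54 TPM in any sample.

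PLAT, the tissue-type activator best known for clot dissolution (chromosome 8, 42175233 to 42207724, minus strand), went the other way from PLAU. It was at 5.64, 4.69 and 4.88 TPM in high calcium, at 6.58, 5.09 and 6.36 TPM in TGFb3 and at 9.33, 9.51 and 10.2 TPM in control. All treated samples were below all controls, and the treated groups overlapped each other. PLAT fell by 0.82 ± 0.11 in high calcium (limma adjusted p = 0.000101) and by 0.61 ± 0.11 in TGFb3 (limma adjusted p = 0.000752). Between high calcium and TGFb3 the difference was -0.20 (95% interval -0.45 to 0.04, limma adjusted p = 0.122) and was not called, but it was called at -0.30 without TGFb3 replicate 2, the lowest TGFb3 sample, and under all 3 other scalings (-0.45, -0.53 and -0.38). The ratio of PLAU to PLAT TPM was 9.74 ± 1.123 in high calcium, 74.0 ± 15.1 in TGFb3 and 1.32 ± 0.0266 in control.

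SERPINE2, the serpin protease nexin-1 that inhibits thrombin and urokinase (chromosome 2, 223975112 to 224039319, minus strand), rose with both treatments. It was at 48.2, 49.2 and 48.6 TPM in high calcium, at 81.0, 82.3 and 77.3 TPM in TGFb3 and at 13.4, 15.1 and 13.4 TPM in control. The groups were well apart, with a spread within high calcium of 1.02% of its mean. The rise was 1.73 ± 0.055 in high calcium (limma adjusted p = 4.96e-09) and 2.44 ± 0.055 in TGFb3 (limma adjusted p = 6.3e-10), and high calcium was below TGFb3 by -0.71 ± 0.055 (limma adjusted p = 1.78e-06).

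The ratio of PLAU plus PLAT to SERPINE2 TPM was 1.11 ± 0.00732 in high calcium, 5.53 ± 0.407 in TGFb3 and 1.61 ± 0.130 in control. The highest values were in the 3 TGFb3 samples and the lowest in the 3 high calcium samples. Other inhibitors of these activators are not part of the ratio, so this order is given for SERPINE2 alone. SERPINB2, another inhibitor of urokinase, had 69.9 ± 3.26 TPM in high calcium, 47.9 ± 7.57 TPM in TGFb3 and 38.2 ± 1.91 TPM in control. With SERPINB2 included the order could differ, and such a ratio was not computed. The ratio is one of RNA, with no measure of protein or activity, and no test was made of this or the other ratios.

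**Figure D2:**
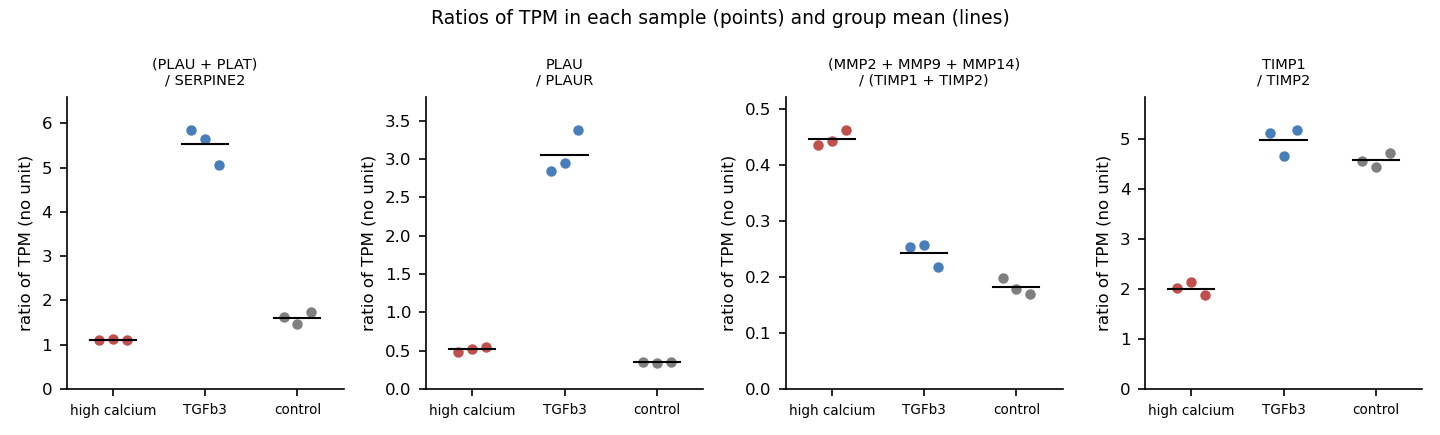
Ratios of TPM (vertical axes, no unit, from 0) in each sample of high calcium, TGFb3 and control; points are samples and lines are group means. Activators over SERPINE2 (5.07 to 5.86) and PLAU over PLAUR (2.84 to 3.38) are highest in TGFb3, while metalloproteases over TIMP1 plus TIMP2 are highest in high calcium (0.436 to 0.464).

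Short stretches near the annotated starts are shown for the genes of the urokinase axis and for MMP14, since these rose with both treatments. Windows of 250 bases upstream of a start were taken from RefSeq promoters (GRCh38.p14) for 5 of the 9 genes, with 2 starts each for PLAU and SERPINE2. They were searched on both strands for the AP-1 letters TGANTCA, which 6.57% of 35116 such windows hold, for the SMAD letters CAGAC (38% of windows) and for CCAAT (32% of windows), for the GC box GGGCGG (42.6%) and for TATAAA (10.7%). No motif searched contains another. Among the 7 windows of these genes, PLAUR alone held the AP-1 letters, 186 bases before its start, and PLAUR and the downstream window of PLAU held the SMAD letters. The PLAUR window and both PLAU windows lie wholly within annotated exons of other transcripts, inside the gene spans given above, so these letters are not outside the transcribed region. No window held TATAAA. The SERPINE2 window that lies outside annotated exons held 7 copies of CCAAT, a count reached by 0.0199% of windows. This window too lies inside the gene span given above, so its letters are not outside the transcribed region. Its sequence, printed below, repeats a similar stretch that carries the motif. The copies are therefore not separate occurrences, and the rarity of their count may reflect the repeat. MMP14 held 1 copy of CCAAT. Such matches describe letters and are not binding sites. Below, capitals mark the letters of the motif named.
PLAUR, AP-1, chr19:43670340-43670364, minus strand: acaactccaTGAGTCAgggccgagc
PLAUR, SMAD, chr19:43670206-43670230, minus strand: ttcgcaaaacGTCTGggaggagtcc
PLAU, SMAD, chr10:73910942-73910966, plus strand: ttcctcagtcCAGACgctgttgggt
SERPINE2, CCAAT, chr2:224031479-224031728, minus strand: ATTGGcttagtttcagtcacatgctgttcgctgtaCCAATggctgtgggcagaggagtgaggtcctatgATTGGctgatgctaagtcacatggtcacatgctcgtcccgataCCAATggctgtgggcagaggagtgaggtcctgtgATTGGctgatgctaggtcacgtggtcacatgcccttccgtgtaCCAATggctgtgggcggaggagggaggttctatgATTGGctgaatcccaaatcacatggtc
MMP14, CCAAT, chr14:22836335-22836556, plus strand: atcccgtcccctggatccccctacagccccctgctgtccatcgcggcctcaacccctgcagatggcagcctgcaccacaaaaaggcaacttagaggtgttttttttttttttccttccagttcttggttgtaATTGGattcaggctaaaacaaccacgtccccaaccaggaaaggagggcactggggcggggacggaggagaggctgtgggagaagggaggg

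Genes for AP-1 factors, which are known to bind the promoters of urokinase and several metalloproteases, had 6 of 8 tested members higher and 2 lower in high calcium, and 6 higher, 1 lower and 1 not called in TGFb3. Among all tested symbols 46.1% rose and 17% fell in high calcium, and 26.5% rose and 33.1% fell in TGFb3. The median difference of the AP-1 genes was 0.73 in high calcium, against 0.22 over all tested symbols, and 0.82 in TGFb3, against -0.06. JUN had 34.9 ± 0.358 TPM in high calcium and 45.9 ± 1.38 TPM in TGFb3, against 6.08 ± 0.248 TPM in control, and was called higher in both. JUNB had 36.3 ± 2.11 TPM in high calcium and 107 ± 7.72 TPM in TGFb3, against 22.9 ± 1.16 TPM in control, while JUND had 70.0 ± 2.40 TPM in high calcium and 30.9 ± 1.40 TPM in TGFb3, against 23.4 ± 1.66 TPM in control. JUNB and JUND were called higher in both, with JUNB above high calcium in TGFb3 and JUND above TGFb3 in high calcium (limma adjusted p = 3.42e-08 and 1.25e-07). ATF3, which is also counted among the calcium and ER stress genes above, was called higher in both. It had 50.93 TPM in high calcium, 13.35 TPM in TGFb3 and 6.425 TPM in control. FOS was called lower in high calcium (11.96 TPM) and higher in TGFb3 (31.9 TPM), against 19.41 TPM in control. FOSL1, named after its values were seen, was called lower in both (-0.54 in high calcium and -0.23 in TGFb3).

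The gelatinases MMP2 (chromosome 16, 55389700 to 55506691, plus strand) and MMP9 (chromosome 20, 46008908 to 46016561, plus strand) were detected at more than trace level in TGFb3 alone. MMP2 was at 0.0462, 0.0783 and 0.0929 TPM in high calcium, at 5.92, 5.04 and 4.61 TPM in TGFb3 and at 0.0440, 0.0171 and 0 TPM in control. MMP9 was at 8.70, 8.66 and 6.05 TPM in TGFb3 and was listed at 0 in all 3 high calcium and all 3 control samples. Every TGFb3 sample was above every other sample for both genes. Since they were tested only because of their level in TGFb3, no p-value is given for that difference, and its size on the log scale depends on the pseudocount. MMP2 was not called in high calcium (limma adjusted p = 0.696). Even in TGFb3 they were low beside MMP14, with means above 27.6% of tested symbols for MMP2 and 35.1% for MMP9.

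Fibroblast markers were higher in both treatments than in control, and highest in TGFb3. Their summed level was 63.2 to 64.8 TPM in high calcium, 358 to 362 TPM in TGFb3 and 43.6 to 51.1 TPM in control. Of the 10 markers 4 reached 1 TPM. These 4 rose in TGFb3 (26.5% of all tested symbols did) and also in high calcium (46.1% did), where MMP2 and MMP9 were not called. FAP was not called in high calcium under the 3 other scalings. The part of these markers in the gelatinase result was not tested. FAP, a membrane protease that is also a fibroblast marker, made up most of that sum, with 50.9 ± 0.524 TPM in high calcium, 319 ± 3.80 TPM in TGFb3 and 43.0 ± 3.77 TPM in control. COL1A2 and THY1 were listed at 0 in all 9 samples. Of 10 macrophage and monocyte markers 4 reached 1 TPM, with sums of 59.3 to 78.9 TPM in high calcium, 20.0 to 23.7 TPM in TGFb3 and 20.9 to 24.9 TPM in control, and PTPRC, TYROBP, CD163 and AIF1 were at 0 throughout. Neutrophil markers, a known source of MMP9 outside epithelium, summed to at most 2.46 TPM in high calcium, 0.111 TPM in TGFb3 and 0.403 TPM in control. Sums were 12 to 13.1, 2.38 to 3.05 and 4.76 to 5.71 TPM in high calcium, TGFb3 and control for endothelial markers, at most 1.21 TPM in any sample for T cell markers, and 15.0 to 19.3, 4.11 to 5.94 and 7.24 to 7.47 TPM in high calcium, TGFb3 and control for adipocyte markers.

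MMP14, the membrane-type protease that activates pro-MMP2 (chromosome 14, 22836557 to 22849027, plus strand), rose by a like amount in both treatments on the TPM scale. It was at 123, 126 and 118 TPM in high calcium, at 130, 123 and 116 TPM in TGFb3 and at 48.2, 45.3 and 46.6 TPM in control. Both treated groups were above all controls and overlapped each other. The rise was 1.37 ± 0.050 in high calcium (limma adjusted p = 1.2e-08) and 1.38 ± 0.050 in TGFb3 (limma adjusted p = 1.43e-08). Between the treatments the difference was -0.01 (95% interval -0.12 to 0.10, limma adjusted p = 0.905) with TPM as deposited. It was called lower in high calcium at -0.29, -0.19 and -0.20 after median ratio rescaling, after quantile normalisation and with mitochondrial genes left out, so the likeness of the levels rests on the scale of TPM. MMP14 made up nearly all metalloprotease RNA of the 3 enzymes in high calcium and in control.

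**Figure D3:**
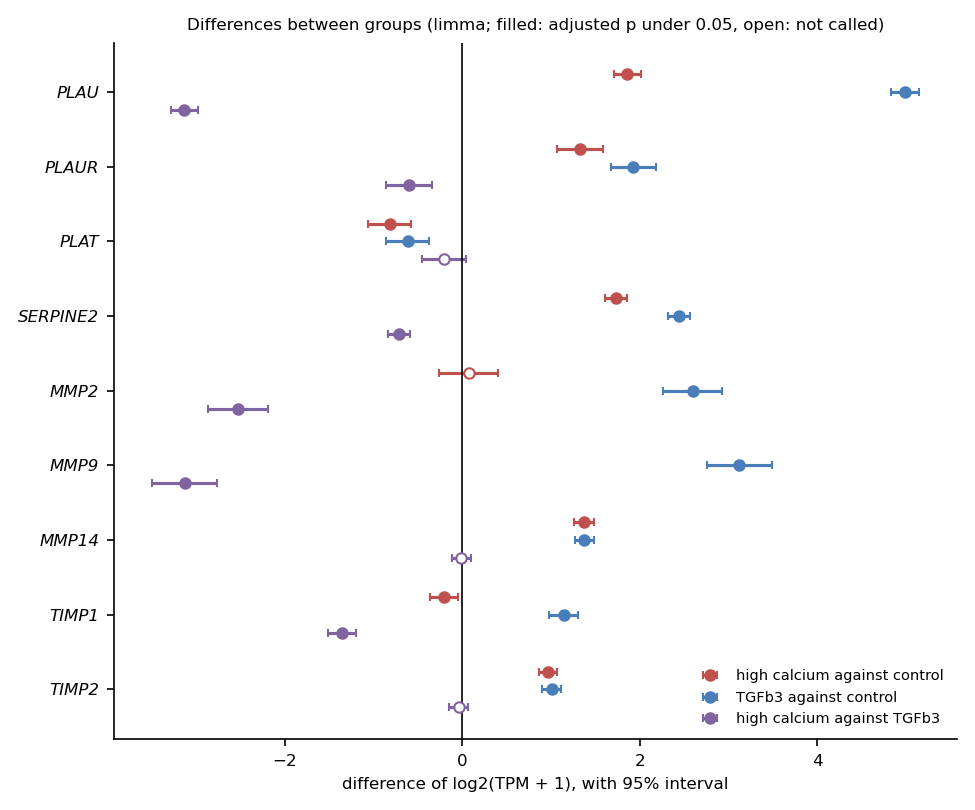
Differences of log2(TPM + 1) between groups (horizontal axis) with 95% intervals from limma, n = 3 a group, for each of the 9 genes; filled points were called at an adjusted p under 0.05 and open points were not. PLAU has the largest difference for TGFb3 (4.99), TIMP1 is on opposite sides of 0 for the treatments (-0.21 in high calcium and 1.14 in TGFb3), and the point for MMP9 in high calcium is left out because all values are 0; differences of MMP2 and MMP9 depend on the pseudocount.

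TIMP1, which inhibits most secreted metalloproteases and binds pro-MMP9 (chromosome X, 47582313 to 47586789, plus strand), was the most abundant of the 9 genes by group mean in each group and rose in TGFb3 but not in high calcium. It was at 189, 194 and 166 TPM in high calcium, at 476, 437 and 488 TPM in TGFb3 and at 199, 207 and 227 TPM in control. TGFb3 samples were above all others, and the high calcium samples were just below the controls. TIMP1 rose by 1.14 ± 0.071 in TGFb3 (limma adjusted p = 4.56e-07) and was below TGFb3 in high calcium by -1.35 ± 0.071 (limma adjusted p = 1.22e-07). Its fall in high calcium was small (-0.21 ± 0.071, limma adjusted p = 0.026), and the call was lost without control replicate 3 (-0.16, limma adjusted p = 0.0926), without high calcium replicate 3 (-0.14, limma adjusted p = 0.0985), with no filter on low values (limma adjusted p = 0.0669) and without a variance trend (limma adjusted p = 0.0539). After rescaling for other abundant RNA the fall was larger, at -0.45, -0.33 and -0.40, and called; over all alternatives its adjusted p ran from 0.000146 to 0.0985. SYN1, which overlaps TIMP1 on the opposite strand, did not exceed 0.516 TPM in any sample.

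TIMP2, which both inhibits MMP14 and helps it to bind pro-MMP2 (chromosome 17, 78852977 to 78925387, minus strand), rose to like levels in both treatments on the TPM scale. It was at 94.1, 90.9 and 88.5 TPM in high calcium, at 93.0, 94.0 and 94.3 TPM in TGFb3 and at 43.6, 46.7 and 48.2 TPM in control. Both treated groups were above all controls and overlapped each other. The rise was 0.97 ± 0.046 in high calcium (limma adjusted p = 6.73e-08) and 1.01 ± 0.046 in TGFb3 (limma adjusted p = 6.09e-08), and the difference between them was -0.04 (95% interval -0.14 to 0.06, limma adjusted p = 0.455). As for MMP14, it was called lower in high calcium under the 3 other scalings, at -0.33, -0.26 and -0.24.

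The ratio of TIMP1 to TIMP2 TPM was 2.00 ± 0.130 in high calcium, 4.98 ± 0.289 in TGFb3 and 4.57 ± 0.136 in control. The ratio of MMP14 to TIMP2 was 1.34 ± 0.0403 in high calcium, 1.31 ± 0.0804 in TGFb3 and 1.01 ± 0.0793 in control. For the 3 metalloproteases over both TIMPs it was 0.448 ± 0.0143 in high calcium, 0.243 ± 0.0221 in TGFb3 and 0.182 ± 0.0151 in control, so that inhibitor RNA exceeded protease RNA in all 9 samples. No values of this ratio overlapped between groups.

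Set directly against each other, high calcium was below TGFb3 for 6 of the 9 genes (16.2% of all tested symbols were lower) and above it for 0 (50.4% of all were higher), with PLAT, MMP14 and TIMP2 not called by limma. In either direction 66.5% of all tested symbols were called. Samples did not overlap for the same 6 genes, all lower in high calcium, where 18.1% of all tested symbols were lower and 53.1% higher without overlap (71.2% together). At an unadjusted p under 0.05 also 0 were higher in high calcium. MMP2 and MMP9, among the 6 in both counts, were tested only through their level in TGFb3 and had to be lower. Of the 7 genes at 1 TPM or more in every group 4 were lower in high calcium and 3 were not called. Under each of the 3 other scalings all 9 were lower in high calcium, where MMP2 and MMP9 again had to be. Of all calls in this comparison 75.7% were higher in high calcium with TPM as deposited, against 49.7% after median ratio rescaling, 51.1% after quantile normalisation and 59.5% with mitochondrial genes left out.

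The order of the levels differed between groups. In high calcium TIMP1 was followed by MMP14, then by PLAUR and TIMP2 and then by PLAU and SERPINE2, with the samples of each of these last pairs overlapping, and PLAT was below them. In TGFb3 the samples of TIMP1 and PLAU overlapped at the top, as did those of PLAUR and MMP14 next. TIMP2 and SERPINE2 followed, and PLAT overlapped both MMP9 above it and MMP2 below it. In control TIMP1 was followed by MMP14 and TIMP2, which overlapped, and then by PLAUR, SERPINE2, PLAU and PLAT, none of which overlapped the next.

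The genes whose profile over the 9 samples was nearest to each of the 9 were sought among 8711 symbols averaging 10 TPM or more, by the root mean square difference of centred log2(TPM + 1). TIMP2 was nearest to JAK1 (0.04) and TMBIM1 (0.05), MMP14 to OPTN and BTG1 (0.07 each) and TIMP1 to ANPEP and KIAA1161 (0.09 each). PLAT was nearest to ZNF551 (0.08) and HSPA8 (0.09), SERPINE2 to LYPD3 and TP53INP2 (0.11 each), and PLAUR to MXD1 (0.13) and TP53I3 (0.14). MMP9 was nearest to TPM1 (0.11) and PDPN (0.17), and MMP2 to AMIGO2 and FAP (0.15 each). MMP2 and MMP9 were at or near 0 outside TGFb3, so the size of their profiles, and with it these matches, depends on the pseudocount. Matches under other pseudocounts were not sought. PLAU was nearest to SCG5 (0.33) and NEDD9 (0.36). The measure grows with the size of a profile, whose own root mean square was 2.06 for PLAU and 0.36 for PLAT, so it does not rank the matches of different genes. SCG5 was at 4.51 TPM in high calcium, 50.7 TPM in TGFb3 and 1.47 TPM in control.

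The other genes of the plasminogen system, with 16 of 21 tested, had 10 higher, 1 lower and 5 not called in high calcium (10 higher and 3 lower after median ratio rescaling). Their median difference was 0.42 there, against 0.22 over all tested symbols. In TGFb3 they had 8 higher, 4 lower and 4 not called (8 higher and 2 lower after median ratio rescaling), with a median of 0.30 against -0.06. Among all tested symbols 46.1% rose and 17% fell in high calcium, and 26.5% rose and 33.1% fell in TGFb3. SERPINB2, the intracellular and secreted inhibitor of urokinase, was at 68.2, 67.7 and 73.6 TPM in high calcium, at 54.2, 50.0 and 39.5 TPM in TGFb3 and at 39.4, 36.0 and 39.2 TPM in control. It rose in both treatments (0.85 and 0.31, limma adjusted p = 4.07e-05 and 0.0222) and was higher in high calcium than in TGFb3 (0.55, limma adjusted p = 0.000785; 0.26 and not called after median ratio rescaling, limma adjusted p = 0.051), opposite in order to SERPINE2. LRP1, the receptor that clears urokinase bound to its inhibitors, had 11.2 ± 0.644 TPM in high calcium and 11.6 ± 1.02 TPM in TGFb3, against 4.26 ± 1.09 TPM in control. S100A10, part of a plasminogen receptor, had 2311 ± 90.2 TPM in TGFb3 against 897 ± 25.6 TPM in control, and F3, the tissue factor that starts clotting, 516 ± 22.4 TPM in TGFb3 against 107 ± 3.73 TPM in control. THBD, which turns thrombin to an anticoagulant role, had 9.74 ± 0.149 TPM in high calcium against 2.55 ± 0.349 TPM in control, and SORL1 had 10.8 ± 0.605 TPM in high calcium against 5.72 ± 0.409 TPM in control. These genes were called higher in the comparisons named. S100A10 (1383 TPM) and F3 (182 TPM) were also called higher in high calcium, and THBD (4.99 TPM) and SORL1 (7.2 TPM) in TGFb3.

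Of 20 further metalloproteases of the MMP family 5 were tested, of which 2 rose, 0 fell and 3 were not called in each treatment by limma (2 higher and 1 lower in high calcium after median ratio rescaling). The share of all tested symbols that rose was 46.1% in high calcium and 26.5% in TGFb3, and 17% and 33.1% fell. The median of the 5 differences was 0.28 in high calcium, against 0.22 over all tested symbols, and 0.09 in TGFb3, against -0.06. The risers were the same pair in both treatments, MMP17 and MMP19, named after their values were seen. MMP17 had 2.72 TPM in high calcium and 2.81 TPM in TGFb3, against 1.36 TPM in control, and its call in high calcium was lost after quantile normalisation (0.26, limma adjusted p = 0.241). MMP19 had 1.87 TPM in high calcium and 1.95 TPM in TGFb3, against 0.246 TPM in control. It passed the 1 TPM filter only through the treated groups, so its rise, counted among the 2, was largely fixed in advance. The collagenase MMP1 did not exceed 0.311 TPM in any sample, the stromelysins MMP3 and MMP10 did not exceed 0.362 and 0.549 TPM, and the collagenase MMP13 was at 1.34, 0.283 and 0.635 TPM in high calcium, at 0.113, 0.246 and 0.501 TPM in TGFb3 and at 0 in control. MMP28, named after its values were seen as the most abundant of the 20, had 35.5 ± 2.54 TPM in high calcium and 40.6 ± 5.77 TPM in TGFb3, against 37.8 ± 2.79 TPM in control, and was not called in either treatment (limma adjusted p = 0.469 and 0.444; called lower in high calcium under the 3 other scalings, at -0.28 to -0.32).

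Other metalloprotease inhibitors, with 3 of 10 tested, had 1 higher, 1 lower and 1 not called in high calcium, and 3 higher in TGFb3. The share of all tested symbols that rose was 46.1% in high calcium and 26.5% in TGFb3, and 17% and 33.1% fell. The median of the 3 differences was 0.08 in high calcium, against 0.22 over all tested symbols, and 0.47 in TGFb3, against -0.06. TIMP3, a TIMP that stays bound to the matrix, was at 28.8, 28.8 and 27.8 TPM in high calcium, at 61.2, 64.7 and 71.3 TPM in TGFb3 and at 51.1, 50.4 and 52.3 TPM in control. It fell in high calcium (-0.83 ± 0.057, limma adjusted p = 8.7e-07) and rose in TGFb3 (0.35 ± 0.057, limma adjusted p = 0.000406), with no overlap of the 3 groups. RECK, a membrane-anchored inhibitor of MMPs, was at 7.75, 8.04 and 7.27 TPM in high calcium, at 9.89, 10.5 and 10.8 TPM in TGFb3 and at 6.15, 7.56 and 8.09 TPM in control. It rose in TGFb3 (0.47 ± 0.10, limma adjusted p = 0.00241) and was not called in high calcium (0.08, limma adjusted p = 0.524; -0.26 and called lower after quantile normalisation). SPOCK1, a secreted testican proteoglycan, had 7.19 ± 0.499 TPM in high calcium and 27.2 ± 1.52 TPM in TGFb3, against 4.32 ± 0.156 TPM in control, and rose in both.

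Of 29 related ADAM and ADAMTS proteases, 10 were tested. In high calcium 8 were higher and 2 not called (5 higher and 5 not called after median ratio rescaling). In TGFb3, 9 were higher and 1 was not called. Over all tested symbols 46.1% rose in high calcium and 26.5% in TGFb3. Their median difference was 0.50 in each, against 0.22 over all tested symbols in high calcium and -0.06 in TGFb3. ADAMTS6 and ADAMTS15 passed the 1 TPM filter mainly through TGFb3, so their rise there was largely fixed in advance. ADAM19 had 59.1 ± 2.41 TPM in TGFb3 against 1.93 ± 0.0495 TPM in control, ADAMTS6 10.6 ± 0.238 TPM in TGFb3 against 0.292 ± 0.0292 TPM in control, and ADAMTS15 7.11 ± 0.608 TPM in TGFb3 against 0.289 ± 0.0700 TPM in control. ADAM12 and ADAM17, sheddases of membrane proteins, had 10.1 ± 0.658 and 63.4 ± 1.23 TPM in high calcium, against 5.68 ± 0.590 and 40.2 ± 1.15 TPM in control, and rose. Both were also called higher in TGFb3 (7.18 and 48.65 TPM). ADAM19 (3.23 TPM) and ADAMTS6 (1.13 TPM) were also called higher in high calcium, ADAM19 not after quantile normalisation.

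**Figure D4:**
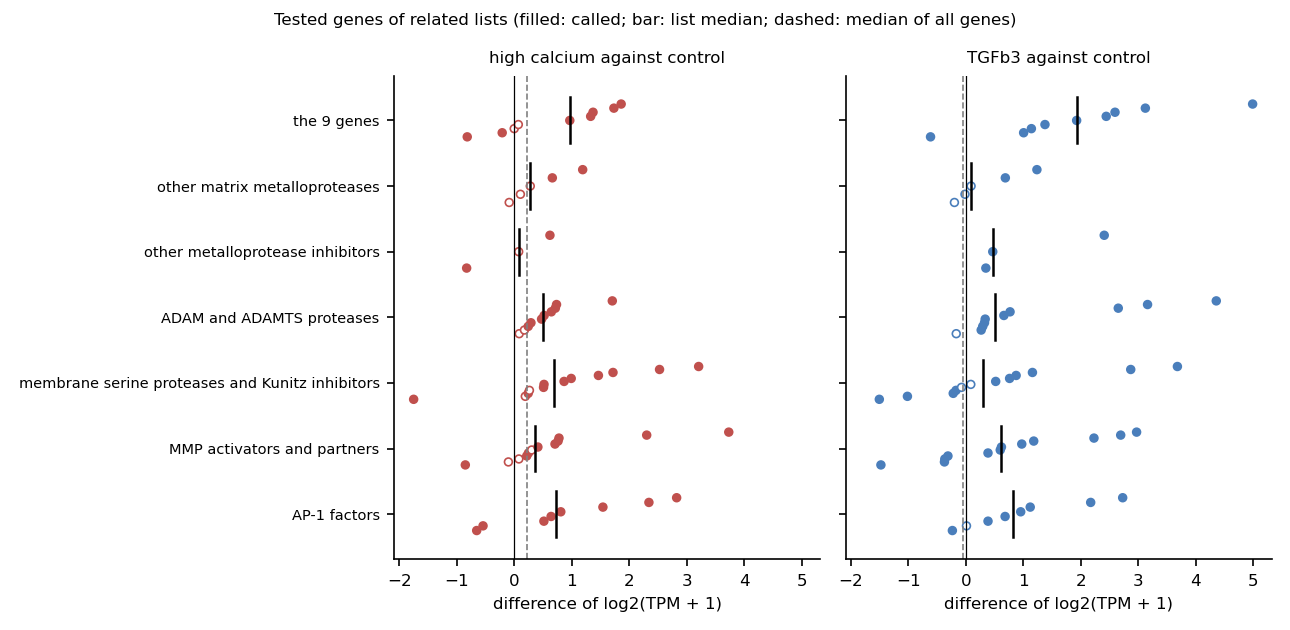
Differences of log2(TPM + 1) against control (horizontal axes) for high calcium and TGFb3, with each tested gene of the 9 and of 6 related gene lists as a point; filled points were called by limma, bars are list medians and dashed lines the median of all tested symbols (0.22 and -0.06). Among the 9 genes PLAU lies farthest out in TGFb3 (4.99), and among the ADAM and ADAMTS proteases ADAM19 does (4.36).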

How the data were processed

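Trizol RNA of 9 MCF10A samples was sequenced in pairs on a NovaSeq instrument, per the labels' protocols. HISAT2 and hg38 are named in the submitters' processing notes; what program made the TPM, with which annotation and strandedness, is not given in the sources used here. TPM values, as deposited by the authors, cover 58288 genes and sum to 1000000 per sample, so depth and counting error are unknown. All columns were matched to samples by label. Entries sharing a symbol were summed (56609 symbols; none of the 9 genes was affected). Coordinates and overlaps come from GENCODE 29 (hg38; 58025 identifiers matched), promoter windows from RefSeq.

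Values were fitted as log2(TPM + 1) for 13968 symbols averaging 1 TPM or more, with limma 3.58.1 (R 4.3.3), 3 groups, a variance trend and 6 residual degrees of freedom; two-sided p-values were adjusted over all tested symbols. Figures used Python 3.11.15 and matplotlib 3.10.9. The fit was tested on simulated data. The 9 genes, the related lists and the rules were chosen with earlier results of these data known. Named genes were the 9, a set of 12 named whatever their values, up to 4 called genes per list and comparison with at least 5 TPM and no overlap of samples, and the 2 nearest profiles per gene; not every gene picked is named, and 1 is not reported here. In total 20 alternatives were run.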

Additional observations from a re-analysis of the deposited data

How the results depend on the processing

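Under 20 alternatives (other pseudocounts, filters, scalings, variance models, samples in the fit, a replicate block, the highest entry per symbol and each sample left out), PLAU, PLAUR, PLAT, SERPINE2, MMP14 and TIMP2 kept their direction and call against control in both treatments, as did TIMP1 in TGFb3. A minimum of 5 TPM removes MMP2 and MMP9. Differences of TGFb3 against control ran from 4.94 to 5.08 for PLAU, and of high calcium against control from 1.63 to 1.93. With a pseudocount of 0.1 those of MMP2 and MMP9 in TGFb3 were 5.47 and 6.29. The uncalled difference of MMP2 in high calcium against control was -0.069 after quantile normalisation, and that of MMP14 in high calcium against TGFb3 ran from -0.048 (without TGFb3 replicate 3) to 0.030 (without TGFb3 replicate 1) with each sample left out, and was 0.02 without high calcium replicate 3. With each sample left out, 8121 to 8828 symbols were called in high calcium against control, 7599 to 8193 in TGFb3 against control and 8585 to 9423 in high calcium against TGFb3.

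Replicate numbers are shared by the groups but samples with the same number did not deviate together (correlations of -0.075 to -0.004). With the replicate block, 8557 symbols and 6 of the 9 genes were called in high calcium against control, 8044 and 9 in TGFb3 against control, and 9118 and 6 in high calcium against TGFb3. TIMP1 in high calcium then had an adjusted p of 0.0513. The unknown depth leaves the trace values of MMP2 and the zeros of MMP9 without a detection limit.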

Other observations

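Epithelial serine proteases and their inhibitors, some of which act upstream of urokinase, also moved. Of 12 tested of 25, 9 rose, 1 fell and 2 were not called in high calcium (with median ratio rescaling 8 higher and 1 lower), and 6 rose, 4 fell and 2 were not called in TGFb3. Among all tested symbols 46.1% rose and 17% fell in high calcium, and 26.5% rose and 33.1% fell in TGFb3. The median difference of these 12 genes was 0.69 in high calcium, against 0.22 over all tested symbols, and 0.30 in TGFb3, against -0.06. PRSS23 had 22.6 ± 2.60 TPM in high calcium against 1.55 ± 0.110 TPM in control, and PRSS8 (prostasin, an activator of membrane proteases) 33.1 ± 1.86 TPM in high calcium against 9.39 ± 1.14 TPM in control. PRSS8 also rose in TGFb3 (18.2 ± 3.40 TPM). PI3 (elafin, an elastase inhibitor) had 362 ± 12.7 TPM in high calcium and 605 ± 68.3 TPM in TGFb3, against 1217 ± 57.4 TPM in control. SPINK6, a kallikrein inhibitor, had 6.77 ± 0.661 TPM in high calcium and 16.6 ± 4.47 TPM in TGFb3, against 0.378 ± 0.366 TPM in control. It passed the 1 TPM filter only through the treated groups, so a rise was largely fixed in advance. HTRA1 had 154 ± 22.5 TPM in TGFb3 against 67.9 ± 3.90 TPM in control. WFDC2 moved in opposite directions, with 148 ± 10.1 TPM in high calcium and 18.3 ± 4.12 TPM in TGFb3, against 53.3 ± 7.98 TPM in control. All these differences were called by limma.

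Among 12 tested activators and surface partners of metalloproteases and of the urokinase receptor, 8 rose, 1 fell and 3 were not called in high calcium (with median ratio rescaling 5 higher and 2 lower), and 8 rose and 4 fell in TGFb3. Over all tested symbols 46.1% rose in high calcium and 26.5% in TGFb3. The median difference of these 12 was 0.36 in high calcium, against 0.22 over all, and 0.61 in TGFb3, against -0.06. LCN2, which binds MMP9 and protects it, had 133 ± 6.73 TPM in high calcium and 2.63 ± 0.390 TPM in TGFb3, against 9.06 ± 0.353 TPM in control, and was called higher in high calcium and lower in TGFb3, where MMP9 was detected. ITGAV, a subunit of vitronectin receptors, had 86.3 ± 1.74 TPM in high calcium and 240 ± 8.50 TPM in TGFb3, against 50.5 ± 1.89 TPM in control, and was called higher in both. Its partner ITGB3 had 6.88 ± 0.938 TPM in TGFb3 and was listed at 0 in all controls, and passed the 1 TPM filter only through TGFb3. MRC2, a collagen uptake receptor that associates with the urokinase receptor, had 10.3 ± 2.89 TPM in TGFb3 against 0.710 ± 0.145 TPM in control. It was also called higher in high calcium (1.79 TPM), but not after quantile normalisation. CLDN1 and CD44 had 203 ± 4.13 and 350 ± 13.5 TPM in high calcium, against 40.3 ± 2.08 and 203 ± 7.32 TPM in control, and CAV1 had 231 ± 3.60 TPM in high calcium against 418 ± 9.45 TPM in control. In TGFb3 too, CLDN1 (61.8 TPM) and CD44 (313 TPM) were called higher and CAV1 (323 TPM) lower. Among 17 mitochondrial and nuclear RNAs read for RNA quality, 4 rose and 13 fell in high calcium, and 6 rose, 2 fell and 9 were not called in TGFb3. In high calcium the 13 were mitochondrial messenger RNAs, such as MT-CO2 (2347 ± 115 TPM against 28300 ± 1956 TPM in control). The 4 were MALAT1, NEAT1 and the mitochondrial ribosomal RNAs MT-RNR1 and MT-RNR2, with MT-RNR2 at 52530 ± 2218 TPM against 5534 ± 419 TPM in control. The mitochondrial share of TPM given above joins these opposite changes.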
